A study of Saccharomyces cerevisiae with 8 samples.

Results

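The acid response of Saccharomyces cerevisiae strain NFRI 3145, which the labels describe as tolerant to acetic acid, was examined as the difference in log2 signal between its 2 arrays at 0.6% acetic acid (0.6% AcOH) and its 2 arrays without it (0% AcOH). All genes of the species above background were used: 3879 of the 5449 S. cerevisiae genes on the Affymetrix Yeast Genome 2.0 array had a signal over background on 2 or more of the 8 arrays of the series. Background was set on each array as the 95th percentile of 1746 probe sets for fission yeast genes, which should find no target in budding yeast RNA. All cells were at 30 °C, and the NFRI 3145 cells with 0.6% AcOH were sampled after 30 min. No time is given for the 0% AcOH samples, so acid cannot be told apart from time or handling. The other 4 arrays hold NBRC 0224, labelled sensitive, 2 at each acid level, and serve here as the comparison strain. The probes were not compared with the sequence of either strain, so signal levels are set against each other only within a strain. Each label gives 2 numbered samples per group and nothing says whether they were separate cultures. The p-values therefore measure only the spread between these arrays.

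Acetic acid at low pH enters yeast cells undissociated and releases a proton and acetate in the cytosol. Cells answer by pumping out protons through the plasma membrane ATPase Pma1, by exporting acetate, and by changing membrane lipids, and the transcription activator Haa1 switches on many genes needed under weak acids. Chaperones controlled by the heat shock factor Hsf1, the general stress genes under Msn2 and Msn4, and the iron uptake genes under Aft1 are other programmes seen in acid-stressed yeast. Baker's yeast also adjusts glucose transport, fermentation and respiration to the energy that these defences use.

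Signals are given in the deposited linear intensity units, and changes on the log2 scale as 0.6% minus 0% AcOH with the fitted standard error (SE), from 2 arrays against 2. A gene was called at a Benjamini-Hochberg adjusted p from limma under 0.05 over the 3879 tested genes, and rose and fell are used only for called genes. Signals above 10000 are described as near the top of the scale, and a change there may be understated, also where this is not repeated. The limit was a choice and saturation was not tested. The highest signals on the 4 NFRI 3145 arrays were 27922 to 31740. The 4 NFRI 3145 arrays shared a trimmed mean of 501. Their replicates correlated across genes at r = 0.975 at 0% and 0.971 at 0.6% AcOH, although genes are not independent samples. Tested genes lay above background in 82.6% and 81.9% of cases on the arrays at 0% AcOH and in 70.4% and 75.6% on those at 0.6% AcOH.

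Control probe sets for ribosomal RNA also moved with the acid. In NFRI 3145, the probe set for the middle of 25S rRNA read 2962 and 5395 at 0% and 364 and 217 at 0.6% AcOH, and that for 5.8S rRNA read 25474 and 25234 against 12534 and 4568. Both groups were clearly apart at these probe sets. The signal ratio of the 5′ to the 3′ probe set of TDH1, a glyceraldehyde-3-phosphate dehydrogenase gene, was 0.123 and 0.130 at 0% and 0.0498 and 0.0377 at 0.6% AcOH. The same ratio for ACT1, the actin gene, stayed between 0.992 and 1.07, with both of its probe sets between 22453 and 25879 units, and that for RIP1, a subunit of the respiratory chain, was 0.274 and 0.268 against 0.208 and 0.279. The part of rRNA carry-over or RNA quality in the gene changes below was not tested.

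**Figure D1:**
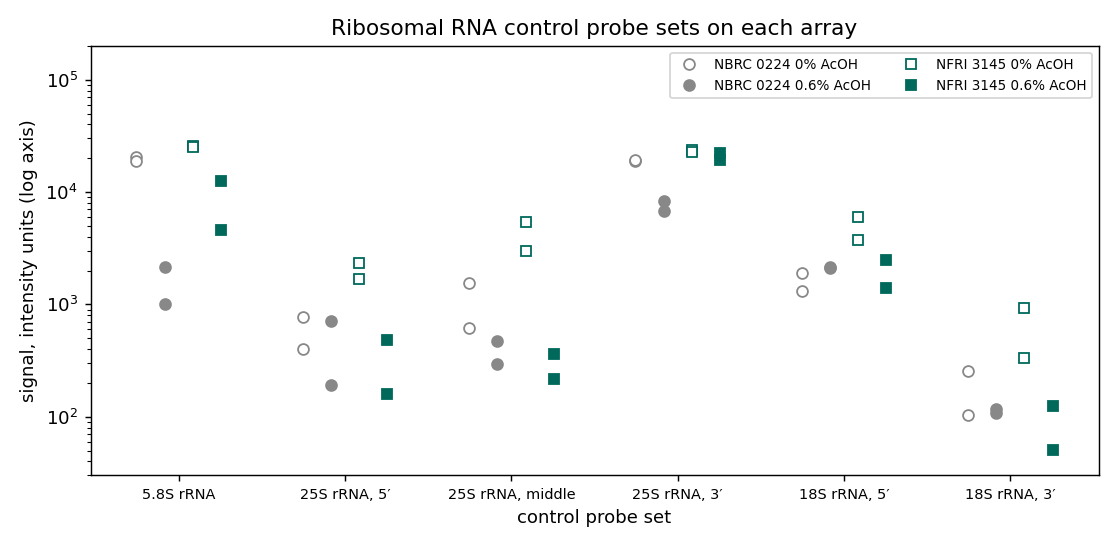
Signals (log axis, intensity units) of 6 ribosomal RNA control probe sets on each of the 8 arrays, grey circles for NBRC 0224 and green squares for NFRI 3145, open at 0% and filled at 0.6% AcOH. In NFRI 3145 the filled squares lie below the open ones at all 6 probe sets, with the widest gap at the middle of 25S rRNA (14.2-fold between group means).

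In NFRI 3145, chaperone, iron uptake, tricarboxylic acid (TCA) cycle and antioxidant genes were among those that rose. Genes of storage carbohydrates and glycerol, the weak-acid programme, the zinc regulon and oxygen-regulated membrane functions were among those that fell. Of the storage carbohydrate and glycerol falls only 2, both at glycerol genes, kept their calls with any 1 array left out. Of the zinc regulon falls only 1 did. Of the 3879 tested genes, 148 (3.82%) were called higher and 375 (9.67%) lower, and 69 of the rises and 316 of the falls were at least 2-fold. The falls were the larger: the median change of the called genes was 0.97 for rises and −1.77 for falls. No called gene had overlapping arrays in the 2 groups, but neither did 957 genes in all with higher and 1338 with lower signals.

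The rises lay at genes with stronger signals than the falls. The median signal at 0% AcOH was 557 units for genes called higher and 170 for genes called lower. Of the rises, 131 (88.5%) were above background on all 4 NFRI 3145 arrays, against 181 (48.3%) of the falls, and 157 of the falls were below background on both arrays at 0.6% AcOH. On both arrays at 0% AcOH, 14 of the rises and 15 of the falls were below background, and 5 of the rises were so on both arrays at 0.6% AcOH. These 15 falls and 5 rises were thus below background in the group where they read higher, and are not measured changes. Among the 1152 tested genes with a mean signal under 50, 12 rose and 115 fell, and among the 660 between 1000 and 10000, 62 rose and 59 fell. A smaller share of genes above background at 0.6% AcOH moved with these falls, and its part in them was not tested.

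The direction of the balance depended on how the arrays were scaled. The median change of all tested genes was −0.07 as deposited, 0.07 after quantile normalization and 0.16 after centring each array on its median. Quantile normalization gave 198 rises and 281 falls, and median centring 335 rises and 285 falls. With only genes above background on all 8 arrays there were 140 rises and 194 falls. Single arrays also mattered: the rises numbered 57 without 0% AcOH replicate 2, 54 and 38 without 0.6% AcOH replicates 1 and 2, 97 without either NBRC 0224 array at 0% AcOH, and 247 and 250 without NBRC 0224 0.6% AcOH replicates 1 and 2. The falls numbered 183 and 126 without NFRI 3145 0% AcOH replicates 1 and 2 and 226 without 0.6% AcOH replicate 1. In every fit with 1 array left out, 30 rises and 107 falls remained called. They include FEX2 and YFL064C, which were below background on all 4 NFRI 3145 arrays. Genes said below to rise or fall are of these 30 and 107 unless the lost call is given.

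**Figure D2:**
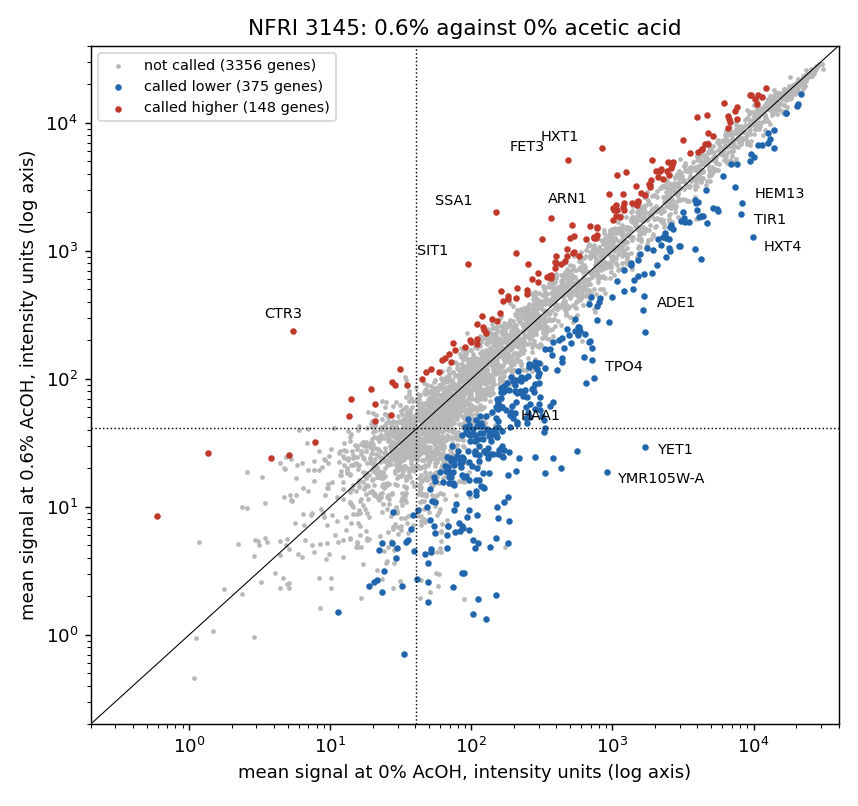
Mean signal of each of the 3879 tested genes in NFRI 3145 at 0% (x) and 0.6% AcOH (y), both on log axes in intensity units, with genes called higher in red and lower in blue, the line of equal signal drawn, and the mean background of the 2 arrays dotted. Red points (148) lie mainly at higher signals, and many of the blue points (375) lie under the dotted horizontal line.

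Some chaperone genes of the cytosol and of mitochondria rose. SSA1 encodes a cytosolic Hsp70 that folds new and damaged proteins, and it read 122 and 184 at 0% and 1919 and 2097 at 0.6% AcOH. It rose by 3.75 ± 0.30 (limma adjusted p = 1.9e-05), with the arrays at 0.6% about an order of magnitude above those at 0%. The small heat shock protein gene HSP26, whose product holds unfolding proteins in solution, read 202 and 211 against 977 and 965, a rise of 2.23 ± 0.22. AHA1, which encodes an activator of the Hsp90 ATPase, went from 942 and 954 to 2663 and 2908 and rose by 1.55 ± 0.20. In each of these genes the replicates lay much closer to one another than the acid levels did. Of 22 tested genes of Hsp70, Hsp90, Hsp104 and their co-chaperones (33 listed), 6 rose (27.3%, beside 3.82% of all tested genes) and none fell. Their median change was 0.27 beside −0.07 over all tested genes. Of the 6, these 3 stayed called in every fit with 1 array left out.

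The Hsp90 genes themselves were not called in NFRI 3145. HSC82, the constitutive one, was already at 17810 and 18490 at 0% and read 23890 and 21940 at 0.6% AcOH, near the top of the scale. HSP82, the inducible one, read 82.7 and 104 against 194 and 264 (1.29 ± 0.39, adjusted p = 0.051). Its arrays did not overlap. HSF1, the gene of the heat shock factor, read 229 and 167 against 426 and 321 (0.92 ± 0.33, adjusted p = 0.089). HSP104, the disaggregase, and SSA4, a heat-inducible Hsp70, were too dim to be tested.

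Of 9 tested mitochondrial chaperones and proteases, 2 rose (22.2%, beside 3.82% of all tested genes) and none fell, and both stayed called. They form one machine: HSP60 encodes the folding chamber of the matrix and HSP10 its lid. HSP10 read 3463 and 4549 at 0% and 11640 and 10710 at 0.6% AcOH, a rise of 1.49 ± 0.16 (adjusted p = 0.00018). HSP60 read 7418 and 7862 against 14060 and 12690, and rose by 0.81 ± 0.13. The upper values of both lie near the top of the scale. MBF1, a coactivator gene of the Gcn4 pathway, belongs to none of the lists and was among the 15 largest rises, from 1364 and 1159 to 3933 and 4297 (1.71 ± 0.20).

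The iron regulon had the most called rises of the 45 lists. Of 30 tested genes of the Aft1 and Aft2 iron regulon (34 listed), 12 rose (40.0%) and 2 fell (6.67%), beside 3.82% and 9.67% of all tested genes. The median was 0.57, and 7 of the 14 calls held without any 1 of the arrays. FET3 encodes the multicopper oxidase that feeds iron to the permease Ftr1. It read 511 and 454 at 0% and 4784 and 5432 at 0.6% AcOH and rose by 3.40 ± 0.24 (adjusted p = 1.2e-05). The gene of its partner FTR1 read 9434 and 9541 against 16980 and 16070, and its call at 0.80 ± 0.20 did not hold without each of 4 arrays in turn.

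Some genes of siderophore import, the other route for iron, also rose. SIT1, a transporter gene for hydroxamate siderophores, went from 89.1 and 99.6 to 750 and 844 (3.08 ± 0.24). ARN1, a transporter of the same family, read 396 and 344 against 1690 and 1953 (2.30 ± 0.20). ENB1, which encodes the enterobactin transporter, read 962 and 1188 against 3675 and 4174 (1.87 ± 0.20). The arrays at 0.6% were all far above those at 0%. The cell wall mannoprotein gene FIT1, which retains siderophores, read 507 and 527 against 1492 and 1725 (1.63 ± 0.20), and FRE4, a ferric reductase gene, 160 and 166 against 463 and 519 (1.59 ± 0.21). FRE7, a metalloreductase gene of the copper regulon, was not called, at 134 and 117 against 199 and 242 (0.81 ± 0.26, adjusted p = 0.062).

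Among genes of copper handling, 2 of 13 rose and 2 fell (15.4% each, beside 3.82% and 9.67% of all tested genes). CTR3, a high-affinity copper transporter gene, was below background on both arrays at 0% (11.5 and 2.59) and read 182 and 308 at 0.6% AcOH, so that it was at least 5.82-fold higher. CRS5, a copper-binding metallothionein gene, read 147 and 155 at 0% and 37.4 and 37.2 at 0.6% AcOH, both below background, and was at least 3.61-fold lower. CTR3 and CRS5 thus changed in opposite directions. CTR1, another copper transporter gene, did not follow CTR3. It read 30.4 and 69.6 at 0% and 30.1 and 26.1 at 0.6% AcOH, above background on only 1 array, and was not called (−0.72 ± 0.46, limma adjusted p = 0.36). CUP1-1, the main metallothionein gene, is measured by a probe set shared with related transcripts. It read 216 and 508 against 44.6 and 38.4, and its call was lost without each of 4 arrays in turn.

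Of 20 tested zinc regulon genes under Zap1, 6 fell (30.0%, beside 9.67% of all tested genes) and none rose, with a median of −0.55. Only FET4, a low-affinity transporter gene for iron and zinc, kept its call without any 1 array. It read 534 and 657 at 0% and 218 and 257 at 0.6% AcOH, a fall of −1.32 ± 0.22 (adjusted p = 0.0026). The low-affinity gene FET4 and the high-affinity gene FET3 for iron thus changed in opposite directions. ZRT1, the high-affinity zinc transporter gene, read 276 and 406 against 184 and 158, and its call did not hold without each of 5 arrays in turn.

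Genes of glucose transport changed in both directions. HXT1 encodes the low-affinity transporter used at high glucose. It read 789 and 906 at 0% and 6581 and 6125 at 0.6% AcOH and rose by 2.91 ± 0.17 (adjusted p = 3.7e-06). HXT4, a transporter gene of higher affinity, read 9089 and 10690 against 1250 and 1328 and fell by 2.94 ± 0.24 (adjusted p = 2.5e-05). The 2 genes changed by about the same amount in opposite directions. MTH1, a co-repressor of hexose transporter genes that is degraded when glucose is sensed, read 99.8 and 106 at 0% AcOH and was below background at 0.6%, at least 2.47-fold lower. HXT2 and HXT3, at 14660 to 17640 units on the 4 arrays, were not called and lie near the top of the scale. HXT7 read 3080 and 4923 against 1797 and 1788 (−1.12 ± 0.37, adjusted p = 0.066). Over the 31 tested genes of hexose transport and glucose sensing, 1 rose (3.23%) and 5 fell (16.1%), beside 3.82% and 9.67% of all tested genes.

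In glycolysis and fermentation none of 27 tested genes rose and 6 fell (22.2%, beside 9.67% of all tested genes), although the median was −0.03. Of the 6, 2 kept their calls without any 1 array, and both are minor isoenzymes. ADH5, a minor alcohol dehydrogenase gene, read 4035 and 3696 at 0% and 964 and 1097 at 0.6% AcOH and fell by 1.91 ± 0.19. PDC6, a minor pyruvate decarboxylase gene, read 362 and 403 against 8.17 and 70.9, with 1 array below background, and was at least 6.87-fold lower. The groups were fully apart in both genes. GLK1, the glucokinase gene, read 8782 and 10050 against 5418 and 4763 (−0.89 ± 0.16, adjusted p = 0.0040, and −0.79 with an adjusted p of 0.058 without 0% AcOH replicate 2).

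Of 28 tested genes of storage carbohydrates and glycerol, 8 fell (28.6%), 1 rose (3.57%) and 19 were not called, with a median of −0.63. Over all tested genes, 9.67% fell and 3.82% rose. GPD2, a glycerol-3-phosphate dehydrogenase gene of glycerol production, read 623 and 528 at 0% and 220 and 223 at 0.6% AcOH and fell by 1.37 ± 0.23. GCY1, a gene of glycerol breakdown, read 112 and 159 against 32.1 and 10.7, both below background, and was at least 3.20-fold lower. These were the 2 members of the list that kept their calls without any 1 array. GLC3, the glycogen branching enzyme gene, read 158 and 121 against 51.1 and 30.3. GSY2, the main glycogen synthase gene, read 95.6 and 78.3 at 0% AcOH and was below background at 0.6%. Each of these 2 glycogen genes lost its call without 1 array, GLC3 without 0.6% AcOH replicate 2 (−1.44, adjusted p = 0.056) and GSY2 without 0.6% AcOH replicate 1 (−1.57, adjusted p = 0.055). GPD1, the osmotically induced partner of GPD2, read 3775 and 4749 against 1852 and 1916 (−1.17 ± 0.23), and its call was lost without each of 2 arrays in turn.

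Some genes of mitochondrial carbon oxidation rose. Of 20 tested genes of the TCA cycle, 7 rose (35.0%, beside 3.82% of all tested genes) and none fell, with a median of 0.49. IDH2, a subunit gene of NAD-dependent isocitrate dehydrogenase, read 265 and 238 at 0% and 800 and 794 at 0.6% AcOH and rose by 1.67 ± 0.21 (adjusted p = 0.00053). ACO1, the aconitase gene of the preceding step, read 2364 and 2011 against 4032 and 4421 (0.95 ± 0.15). These 2 of the 7 kept their calls without any 1 array. The 4 succinate dehydrogenase genes SDH1 to SDH4 lay between −0.26 and 0.05 and were not called. Of 40 tested subunits of respiratory complexes and the ATP synthase, 6 were called higher and none lower (median 0.22). CYC1, the cytochrome c isoform 1 gene, read 296 and 343 against 1154 and 1323 (1.96 ± 0.22), and it alone of the 6 stayed called. RCF1, which encodes an assembly factor of respiratory supercomplexes and is in none of the lists, went the other way: it read 501 and 633 at 0% and was below background on both arrays at 0.6% AcOH, at least 13.5-fold lower.

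Over the 29 tested genes of gluconeogenesis, the glyoxylate cycle and acetate use, 3 rose and 3 fell, with a median of −0.27. Each is 10.3% of the list, beside 3.82% higher and 9.67% lower of all tested genes. The 2 calls that held without any 1 array were rises. ALD6, the cytosolic aldehyde dehydrogenase gene that makes acetate, read 1060 and 964 at 0% and 2191 and 2132 at 0.6% AcOH and rose by 1.10 ± 0.17 (adjusted p = 0.0019). ACS2, the acetyl-CoA synthetase gene expressed on glucose, read 1880 and 1733 against 3321 and 3385 (0.89 ± 0.14). In both genes the replicates differed far less than the groups. The gluconeogenic genes FBP1 and PCK1 were not called: FBP1 read 131 and 207 against 77.2 and 127, its groups only just apart, and PCK1 read 200.1 and 190 against 113 and 106.

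Of 34 tested antioxidant genes under Yap1 and Skn7, 9 were called higher (26.5%, beside 3.82% of all tested genes) and none lower. The median was 0.47. AHP1, a peroxiredoxin gene, read 5311 and 7163 at 0% and 14780 and 13710 at 0.6% AcOH and rose by 1.21 ± 0.16, into the top of the scale. GRE2, which encodes a methylglyoxal reductase, read 580 and 492 against 1264 and 1345 (1.29 ± 0.21). These 2 kept their calls without any 1 array. The other named members that were called are the glutaredoxin genes GRX2 and GRX5, the thioredoxin gene TRX2, the superoxide dismutase gene SOD1 and ZWF1, the entry enzyme of the pentose phosphate pathway. Their changes lay between 0.61 and 1.22, and each lost its call without at least 2 of the arrays in turn. CTT1, the cytosolic catalase gene, was dim on all 4 arrays, at 29.6 and 47.7 against 31.2 and 12.4, and was not called.

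The general stress programme of Msn2 and Msn4 did not move one way. Of 37 tested members, 4 rose (10.8%) and 7 fell (18.9%), beside 3.82% and 9.67% of all tested genes. The median was −0.51. HSP26, described above, rose, and MSC1, a gene with a role in meiotic recombination, fell from 91.0 and 96.1 to below background on both arrays, at least 2.24-fold lower. HSP12, a membrane-stabilising stress protein gene, read 91.8 and 73.0 against 93.4 and 95.5. DDR2, a multistress gene, read 131 and 135 against 50.4 and 30.6, and its call was lost without 0% AcOH replicate 1 (adjusted p = 0.055), 0% AcOH replicate 2 (0.077) or 0.6% AcOH replicate 2 (0.063).

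Genes of the Haa1 weak-acid regulon had the lowest median of all 45 lists, at −1.04. Of 21 tested members (28 listed), 8 fell (38.1%) while 1, HSP26, rose (4.76%), beside 9.67% and 3.82% of all tested genes. HAA1 itself, the activator, read 189 and 188 at 0% and 38.6 and 45.3 at 0.6% AcOH, with 1 array below background, and was at least 4.24-fold lower. NRG1, a repressor gene of glucose-repressed genes, read 287 and 354 against 62.3 and 41.5 and fell by 2.65 ± 0.42. ICY1, a gene of unclear function, read 267 and 233 against 72.3 and 72.0 (−1.79 ± 0.28). In all 3 genes the arrays at 0.6% lay far below those at 0%. YRO2, a plasma membrane protein gene, read 409 and 346 against 43.8 and 99.7. Its change of −2.51 ± 0.52 (adjusted p = 0.010) was not called without 0% AcOH replicate 1 (0.059), 0% AcOH replicate 2 (0.056) or 0.6% AcOH replicate 1 (0.088).

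Several other Haa1 targets read lower at 0.6% AcOH without being called. Of the 21 tested members of the list, 5 had a change above 0. GRE1 read 73.7 and 40.8 at 0% and 67.5 and 94.3 at 0.6% AcOH, with overlapping groups (0.54 ± 0.51, limma adjusted p = 0.55). The cell wall protein genes YGP1, at 580 and 536 against 319 and 309, and SPI1, at 753 and 620 against 414 and 402, each had groups that did not overlap (adjusted p = 0.16 and 0.13). The polyamine transporter gene TPO3 read 641 and 958 against 277 and 526, and TPO2 read 4026 and 4494 against 3342 and 3533. HSP30, a regulator of Pma1, read 528 and 691 against 213 and 185 (−1.60 ± 0.73, adjusted p = 0.18). HRK1, the kinase gene that acts on Pma1, was too dim to be tested. The sign of the median of the Haa1 list held under all 3 scalings, at −0.91 with quantile normalization and −0.81 with median centring.

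Genes for acid entry, anion export and proton pumping were mostly not called, as were 3356 of all 3879 tested genes. None of 23 tested members was higher and 2 were lower (8.7%, near the 9.67% of all tested genes). PMA1, the proton pump, read 15170 and 14850 at 0% and 14370 and 14250 at 0.6% AcOH (−0.07 ± 0.11), near the top of the scale. FPS1, the channel through which acetic acid enters, was below background on all 4 arrays, at 23.1 to 34.4. TPO4, a polyamine transporter gene, was the clear exception: it read 751 and 687 against 125 and 159 and fell by 2.35 ± 0.23 (adjusted p = 8.1e-05). PDR12, the anion exporter for sorbate and benzoate, read 1433 and 1281 against 724 and 846 (−0.79 ± 0.21, adjusted p = 0.032), and its call was lost without each of 6 arrays in turn. Its activator WAR1 read 59.4 and 39.5 against 63.0 and 48.6. Of the 20 tested vacuolar ATPase genes, 1 was higher (5.0%, beside 3.82% of all tested genes) and none lower, with a median of 0.02.

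**Figure D3:**
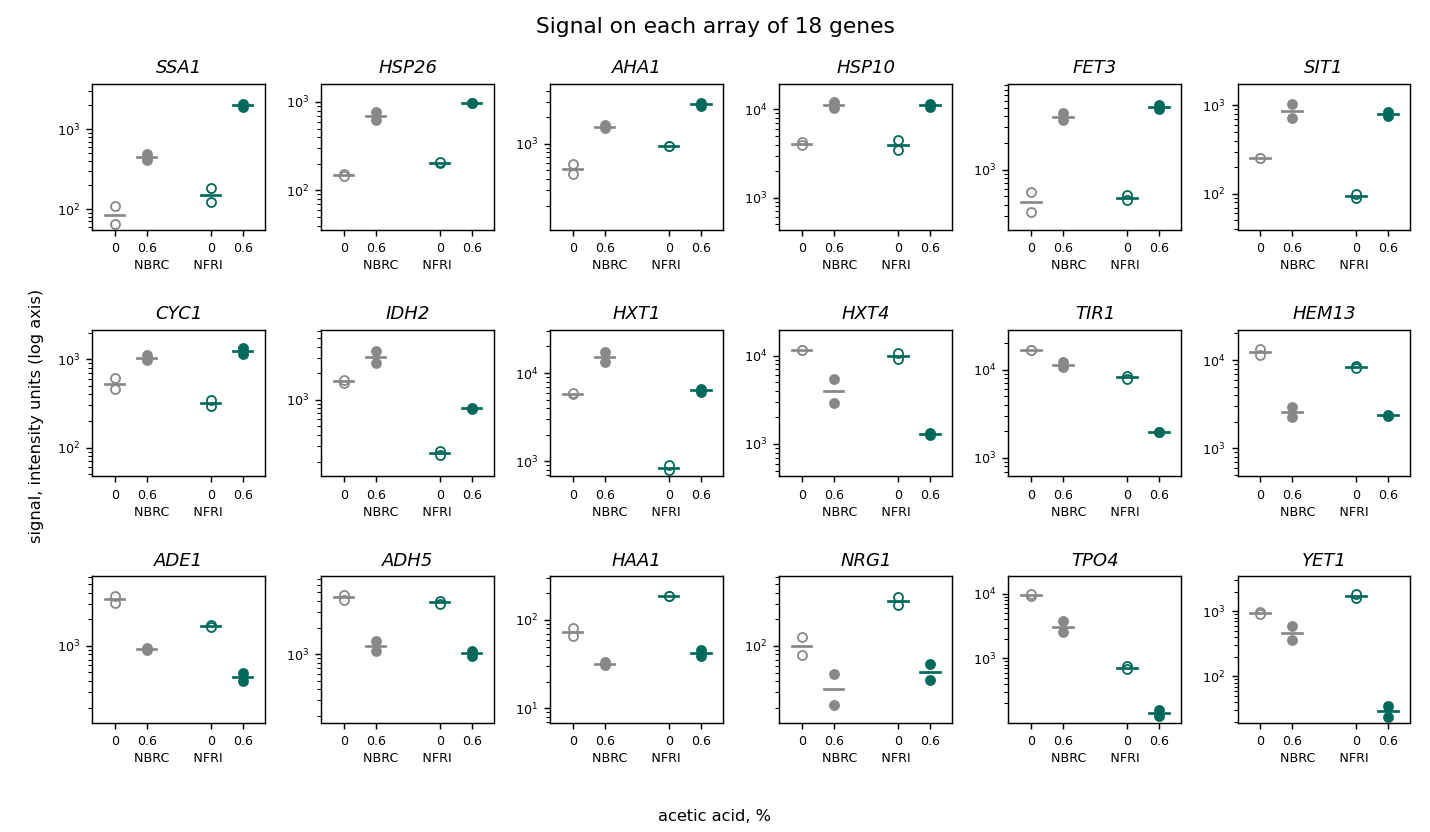
Signal on each array (points, log axis, intensity units) and group mean (bar) of 18 genes described in the text, grey for NBRC 0224 and green for NFRI 3145, open at 0% and filled at 0.6% acetic acid. In NFRI 3145 (right pair in each panel) the open and filled points do not overlap in any of the 18 genes; SSA1 to HXT1 are higher and HXT4 to YET1 lower at 0.6%.

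Several oxygen-regulated genes fell. Of 28 tested hypoxic and heme genes, none rose and 7 fell, and 5 of the 7 kept their calls without any 1 array. TIR1, a cell wall mannoprotein gene induced by cold and anaerobic growth, read 8526 and 7839 at 0% and 1970 and 1946 at 0.6% AcOH and fell by 2.06 ± 0.13 (adjusted p = 7.7e-06). HEM13, the oxygen-dependent coproporphyrinogen oxidase gene of heme synthesis, read 8447 and 8164 against 2415 and 2328 (−1.81 ± 0.17). AAC3, the ADP/ATP carrier gene used without oxygen, read 1863 and 1931 against 602 and 757 (−1.49 ± 0.18). The replicates in these genes were nearly equal beside the gap between acid levels. ROX1, the repressor of hypoxic genes, was not called (−0.07). The list's median was −0.15 and changed sign under median centring (0.08), with medians over all tested genes of −0.07 and 0.165. The result is therefore given for these members and not for the list as a whole.

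The remaining pair of oxygen-regulated falls act on membrane lipids. OLE1, the delta-9 fatty acid desaturase gene, read 7966 and 6959 against 3109 and 3208 (−1.24 ± 0.16), and HMG2, the isoform 2 gene of HMG-CoA reductase, read 14340 and 13790 against 6117 and 6631 (−1.14 ± 0.14). ERG5, a late ergosterol gene, also fell, from 11600 and 8631 to 5689 and 5208 (−0.88 ± 0.15). Over 33 ergosterol genes, 4 rose (12.1%) and 5 fell (15.2%), beside 3.82% and 9.67% of all tested genes, so the pathway did not move one way. Of 28 sphingolipid genes, 1 rose and 7 fell. LAC1, a ceramide synthase gene, read 12350 and 10650 against 6383 and 7122 (−0.77 ± 0.13), and RSB1, which encodes a sphingoid base transporter of the plasma membrane, read 785 and 814 against 417 and 387 (−0.99 ± 0.18). FAA1, a fatty acyl-CoA synthetase gene, was below background at 0% and read 91.0 and 98.5 at 0.6% AcOH, at least 2.33-fold higher.

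At the cell wall, 1 of 45 tested genes rose (2.22%) and 5 fell (11.1%), shares near those of all tested genes (3.82% and 9.67%). GSC2, the stress-induced subunit of glucan synthase, read 1944 and 1874 at 0% and 5683 and 4626 at 0.6% AcOH and rose by 1.43 ± 0.18. YPS3, a cell surface aspartic protease gene, read 3026 and 2937 against 1261 and 959 (−1.44 ± 0.21). WSC4, a gene of the stress sensor family of the wall, read 73.3 and 93.2 at 0% and was below background at 0.6% AcOH, at least 1.98-fold lower. These 3 and TIR1 kept their calls without any 1 array.

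Of 31 tested genes of purine synthesis and one-carbon metabolism, 2 rose and 7 fell (22.6%, beside 9.67% of all tested genes). ADE1, an enzyme in the middle of the purine pathway, read 1736 and 1616 at 0% and 401 and 492 at 0.6% AcOH and fell by 1.92 ± 0.20 (adjusted p = 0.00012). ADE8, of an earlier step, read 2228 and 2855 against 1058 and 1033 (−1.27 ± 0.20). Both genes had groups well apart. ADE17, an enzyme of the last steps, read 10100 and 9145 against 5696 and 5748 (−0.75 ± 0.15), and its call was lost without each of 2 arrays in turn. The list's median was −0.21 as deposited and 0.02 under median centring, which left 3 falls, so the sign of the median depends on the scaling. Median centring shifts every gene's change by the same amount, and the median over all tested genes went from −0.07 to 0.165.

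FUI1, the uridine permease gene, was the single called gene of 14 in pyrimidine synthesis and uptake, at 3387 and 2911 against 7234 and 7468 (1.23 ± 0.18). BAP2, a permease gene for branched-chain amino acids, read 4288 and 5079 at 0% and 11780 and 11310 at 0.6% AcOH (1.31 ± 0.16). LYS20, a homocitrate synthase gene that starts lysine synthesis, read 640 and 745 against 1503 and 1611 (1.17 ± 0.22), and MET17, which incorporates sulfide into homocysteine, read 9870 and 9313 against 16760 and 16440 (0.79 ± 0.12). All 4 genes rose with no overlap between groups. Most members of their lists were not called. Of 33 amino acid and nitrogen permeases, 3 rose (9.09%) and 1 fell (3.03%). Of 19 genes of arginine and lysine synthesis, 2 rose (10.5%) and 1 fell (5.26%). Of 27 genes of sulfate assimilation and methionine, 5 rose (18.5%) and 2 fell (7.41%). Over all tested genes, 3.82% rose and 9.67% fell.

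The translation machinery moved little. None of 75 large-subunit and 53 small-subunit ribosomal protein genes rose, with medians of 0.01 and 0.04. In each set 1 fell (1.33% and 1.89%, beside 9.67% of all tested genes). Of 72 ribosome biogenesis genes none rose and 3 fell (4.17%). UTP30, which encodes a subunit of a complex that processes pre-rRNA, read 344 and 307 at 0% and 37.5 and 60.9 at 0.6% AcOH, with 1 array below background, and was at least 6.31-fold lower. NOP15, a gene needed to make the large subunit, read 246 and 328 against 50.9 and 66.7 (−2.29 ± 0.33). RSM7, a protein gene of the small mitochondrial ribosomal subunit, read 5291 and 5732 against 2299 and 1980 (−1.37 ± 0.20). The histone and thiamine lists had no called member among 9 and 18 genes tested by limma at an adjusted p under 0.05.

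Proteasome and endoplasmic reticulum genes each had 1 or a few large falls in a list with few other calls. The median of the proteasome and ubiquitin list was −0.27 as deposited, 0.20 after quantile normalization and −0.03 after median centring. Its direction thus depends on the scaling. PRE9, the gene of the only nonessential subunit of the 20S core, read 373 and 287 at 0% and 31.0 and 47.8 at 0.6% AcOH, with 1 array below background, and was at least 7.17-fold lower. The 34 tested proteasome and ubiquitin genes had 1 rise and 1 fall (2.94% each, beside 3.82% and 9.67% of all tested genes). YET1, which encodes a protein of the endoplasmic reticulum related to mammalian BAP31, had the largest fall against background of all called genes. It read 1578 and 1839 at 0% and 35.7 and 24.3 at 0.6% AcOH, both below background, and was at least 40.8-fold lower (adjusted p = 1.2e-06). Its relative YET3 read 6914 and 5805 against 8875 and 8532 (0.46 ± 0.14, adjusted p = 0.053). MPD2, a protein disulfide isomerase gene, read 150 and 108 at 0% and was below background at 0.6% AcOH, at least 3.05-fold lower.

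Several of the largest falls were at short or little-studied reading frames. YMR105W-A read 924 and 899 at 0% and 23.0 and 15.2 at 0.6% AcOH, at least 21.9-fold lower, and YBR182C-A was at least 10.3-fold lower. YGR204C-A and YKL183C-A stayed above background and fell by 2.86 ± 0.31 and 2.82 ± 0.26. TCO89, a subunit gene of the growth regulator TORC1, read 324 and 342 against 15.6 and 21.6, at least 7.98-fold lower, and RUP1, a cofactor gene of the ubiquitin ligase Rsp5, was at least 6.83-fold lower. YBL111C, a reading frame of the subtelomeric Y′ elements measured by a probe set shared among copies, read 1596 and 1810 against 227 and 240 (−2.87 ± 0.21). Genes with a systematic name only made up 19.7% of the falls and 5.41% of the rises, against 8.79% of all tested genes. Genes with a letter after the systematic name, a mark of short reading frames added to the annotation late, were 33 of the 375 falls (8.8%), 1 of the 148 rises and 93 of the 3879 tested.

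The sign of a list's median often depended on the scaling. Median centring shifts every gene's change by the same amount, so it can turn a list's sign but not its place among all tested genes. Of the 45 lists, 18 had a median above 0 and 9 a median below 0 under the deposited scaling, quantile normalization and median centring alike, and the other 18 changed sign. The iron, TCA cycle, oxidative stress, respiratory chain and both chaperone lists were above 0 in all 3. The mitochondrial chaperone median ran from −0.01 to 0.15 over the fits with 1 array left out. The Haa1, general stress, zinc, storage carbohydrate and glycerol, mating, maltose, COS, acid transport and gluconeogenesis lists were below 0 in all 3. Of the 523 calls, 344 were at genes in none of the lists.

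The NBRC 0224 arrays were used to see which of these changes were shared. The 2 responses use no array in common, so their log2 changes come from separate arrays. Their calls are not independent, because the common fit gave each gene the same SE in both strains. A gene with a small SE is thus more easily called in both, and the part of this in the shared calls was not tested. In NBRC 0224, 140 genes (3.61%) were called higher and 186 (4.80%) lower. Of the NFRI 3145 rises, 42 were also called higher there, 28.4% of the NFRI 3145 rises and 30.0% of those of NBRC 0224. Of the falls, 102 were called lower in both, 27.2% of those of NFRI 3145 and 54.8% of those of NBRC 0224. The fitted NBRC 0224 change had the same sign for 117 of the 148 rises and 320 of the 375 falls. The share with the same sign over all tested genes was not counted. Genes called in NFRI 3145 had a median change in NBRC 0224 of 0.40 for the rises and −0.74 for the falls. Several of the leading rises were nearly equal in size in the strains, such as HSP26 (2.23 and 2.21), AHA1 (1.55 and 1.59), MBF1 (1.71 and 1.73) and HSP10 (1.49 and 1.48), with the SE of these differences between 0.23 and 0.31.

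A difference of responses was called where NFRI 3145 changed more or less than NBRC 0224 by the interaction term of the limma fit. It was called higher in NFRI 3145 for 8 genes (0.206%) and lower for 25 (0.644%). In 7 of the 33 the strains were called in opposite directions, in 11 only NFRI 3145 and in 11 only NBRC 0224 was called, and in 4 both were called the same way. None of the 8 and 3 of the 25 kept their calls in every fit with 1 array left out. The number of differences was 0 higher and 4 lower without NBRC 0224 0% AcOH replicate 1 and 168 in each direction without NBRC 0224 0.6% AcOH replicate 1.

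The 3 differences that kept their calls were at YET1, FRE7 and PCK1. YET1 read 969 and 920 at 0% and 591 and 356 at 0.6% AcOH in NBRC 0224, against a fall below background in NFRI 3145. The fitted difference was −4.81 ± 0.41 (adjusted p = 0.00041), and it was −4.31 (adjusted p = 3.4e-05) with signals raised to background, which bounds it. FRE7 went from 152 and 238 to 3881 and 3905 in NBRC 0224, so that the NFRI 3145 response was lower by 3.55 ± 0.37 on the log2 scale (adjusted p = 0.0011). PCK1, the entry enzyme gene of gluconeogenesis, went from 181 and 206 to 1071 and 1733 in NBRC 0224, a difference of −3.65 ± 0.37 (adjusted p = 0.0011). In these 2 genes the rise was called in NBRC 0224, while in NFRI 3145 neither change was called.

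Other differences concern genes described above. HXT1 rose in both strains, by 2.91 in NFRI 3145 and 1.39 in NBRC 0224, where it read 13230 and 17530 at 0.6% AcOH near the top of the scale (difference 1.52 ± 0.24, adjusted p = 0.013). TIR1 fell in both, by 2.06 and 0.55 (difference −1.51 ± 0.19, adjusted p = 0.0041), from 16730 and 16630 units in NBRC 0224, near the top of the scale. RSB1 fell in NFRI 3145 and rose by 0.91 ± 0.18 in NBRC 0224 (difference −1.90 ± 0.26, adjusted p = 0.0062). Each lost its call without NBRC 0224 0% AcOH replicate 1, at adjusted p of 0.11, 0.060 and 0.078, and HXT1 also without NBRC 0224 0% AcOH replicate 2 (0.097) or NFRI 3145 0.6% AcOH replicate 1 (0.068). HAA1 and SSA1, in contrast, had no called difference (adjusted p = 0.28 and 0.15), which does not show that the strains responded alike.

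**Figure D4:**
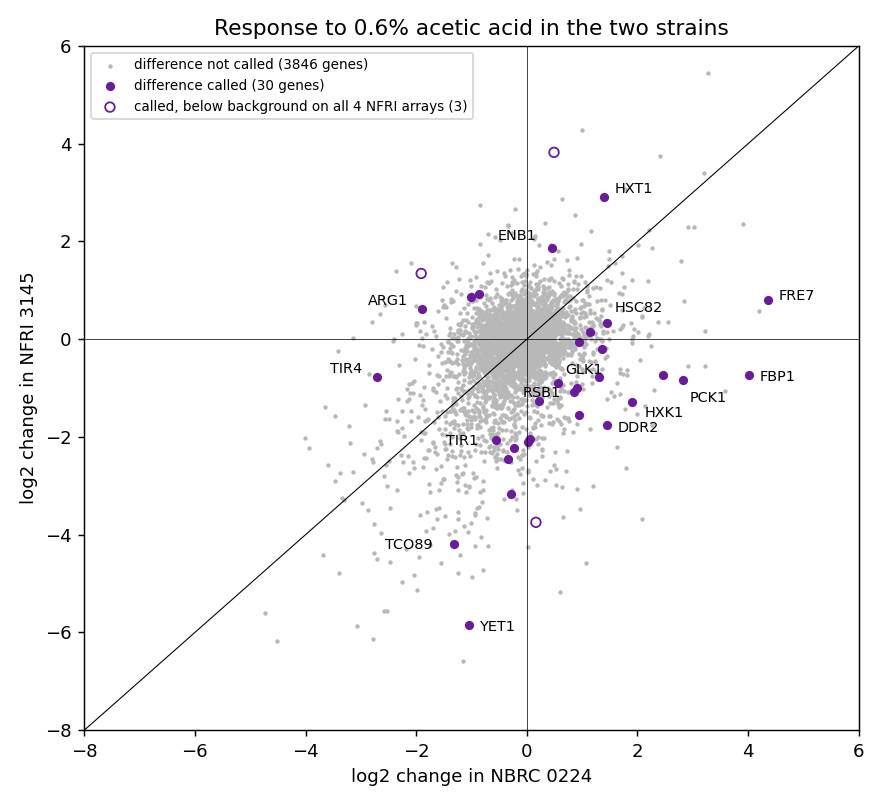
Log2 change at 0.6% against 0% AcOH of the 3879 tested genes in NBRC 0224 (x) and NFRI 3145 (y), with the line of equal change drawn, the 33 genes with a called difference in purple, and open symbols for the 3 of them below background on all 4 NFRI 3145 arrays. YET1 lies far below the line at fitted changes of −5.86 in NFRI 3145 and −1.04 in NBRC 0224, and FRE7, FBP1 and PCK1 lie to the right, where NBRC 0224 rose.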

How the data were processed

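RNA from 8 samples was measured on Affymetrix arrays, 2 in each of 4 groups assigned by sample titles. The series matrix holds linear signals, deposited as 1 intensity per probe set and array, which the authors made with GCOS, per the submitters' processing notes, already scaled to a common 2% trimmed mean. The labels give polyA RNA from a hot phenol extraction, labelled with biotin. Genes were named through the platform annotation and the R64 gene table, and where a gene had several probe sets (47 genes) the brightest by mean log2 signal stood for it. Log2 signals were fitted with limma 3.58.1 (R 4.3.3) as 4 group means over all 8 arrays, with eBayes(trend = TRUE), 11.3 moderated degrees of freedom and Benjamini-Hochberg adjustment over 3879 genes. Against a group with arrays below background, such arrays were raised to their background and the fold is written as at least that value.

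Named genes are the 15 largest rises and 15 largest falls among called genes without overlap, up to 6 called members of each of 45 lists by smallest p and any member of a list with up to 20 tested members, the 8 largest called differences of the responses each way, and 42 fixed genes. The members and lists were chosen with earlier results of these data known. Lists are described by counts and medians, with no test. The steps were tested on simulated data. Scaling, filters, the background level, the variance model, a replicate block and each array's omission were varied. Plots were drawn with matplotlib 3.10.9.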

Additional observations from a re-analysis of the deposited data

Results flagged for a closer look

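For 22 named genes the acid response of NFRI 3145 differed from that of NBRC 0224 by the interaction term of limma (Benjamini-Hochberg adjusted p under 0.05 over 3879 genes), and each is given as the NFRI 3145 minus the NBRC 0224 log2 change. The response was lower in NFRI 3145 for YET1 (−4.81), the gluconeogenic genes FBP1 (−4.74) and PCK1 (−3.65), the metalloreductase gene FRE7 (−3.55) and the stress and hexokinase genes DDR2 (−3.20) and HXK1 (−3.19). It was also lower for the mating-induced gene PRM3 (−3.18), TCO89 (−2.86), the methylenetetrahydrofolate reductase gene MET13 (−1.94), RSB1 (−1.90), TIR1 (−1.51), GLK1 (−1.45) and the Hsp90 gene HSC82 (−1.12). The 4 NFRI 3145 signals of HSC82, at 17810 to 23890, and those of GLK1 in NBRC 0224 at 0.6% AcOH, at 11330 and 14610, lie near the top of the scale, so these 2 differences may be misjudged in size. Some signals of TIR1, TIR4 and HXT1 lie there too. The response was higher in NFRI 3145 for ENB1 (1.42), HXT1 (1.52), the protein disulfide isomerase gene EUG1 (1.79), the RNA-binding protein gene SCP160 (1.87), the mannoprotein gene TIR4 (1.95) and the arginine synthesis gene ARG1 (2.51). TIR4 was called lower in NFRI 3145, a call lost without each of 4 arrays in turn, and its NBRC 0224 change lay further below 0. ARG1 was not called in NFRI 3145 (0.62, limma adjusted p = 0.092) and fell by 1.89 in NBRC 0224. FBP1 and HSC82 were likewise not called in NFRI 3145, and they rose by 4.01 and 1.45 in NBRC 0224.

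DDR2, HXK1, GLK1, RSB1 and MET13 were called lower in NFRI 3145 and higher in NBRC 0224, and EUG1 and SCP160 the other way round. The NFRI 3145 calls among these were lost without each of 5 arrays in turn for HXK1, EUG1 and SCP160, without each of 3 for DDR2 and MET13, and without 1 for GLK1, while that of RSB1 held. HXK1 read 341 and 406 at 0% and 194 and 120 at 0.6% AcOH in NFRI 3145, and 150 and 187 against 905 and 432 in NBRC 0224. The differences at FBP1 and ARG1 lost their calls without NBRC 0224 0% AcOH replicate 1 (adjusted p = 0.054 and 0.060). Those at DDR2, HXK1, GLK1, TIR4 and HXT1 lost theirs without each of 3 or 4 arrays in turn, with adjusted p of up to 0.13, TIR1 and RSB1 without 1, and the others except YET1, FRE7 and PCK1 without 2 to 7. No explanation of these differences was tested.

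For 3 of the 22 genes the signal lay below background on all 4 NFRI 3145 arrays, so that the fitted difference has no reading as a response of NFRI 3145: the azole and acetic acid transporter gene AZR1 (3.25), the fluoride exporter gene FEX2 (3.33) and the subtelomeric reading frame YFL064C (−3.91). In NBRC 0224, FEX2 read 4425 to 6549 and AZR1 618 to 2442 units.

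For 4 more genes some arrays behind the difference lay below background. PRM3 was below it on both NBRC 0224 arrays at 0% AcOH, at 10.9 and 8.27. With signals raised to background, its difference was −1.31 and no longer called (adjusted p = 0.075). YET1 and TCO89 were below background on both NFRI 3145 arrays at 0.6% AcOH, and DDR2 on 1 of them. In NBRC 0224, DDR2 was below background on 1 array at 0% AcOH. TCO89 was above it there on only 1 array at 0% and on neither at 0.6% AcOH. The response of TCO89 in NBRC 0224 is thus not measured. With signals raised to background their differences were −4.31, −2.76 and −2.70 and stayed called (adjusted p = 3.4e-05, 0.00091 and 0.00081).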

How the results depend on the processing

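The counts are given as higher and lower. In NFRI 3145, median centring gave 335 rises, a fit of the 4 NFRI 3145 arrays only 246 and eBayes without trend 73, while the filter on all 8 arrays gave 194 falls, with fewer genes tested. Leaving out 1 array gave 38 to 250 rises and 126 to 517 falls. For the difference of the responses, the counts higher were 15 with quantile normalization, 19 with median centring and 16 with the filter on all 8 arrays. Raising signals to background gave 43 and 105, eBayes without trend 0 and 5 (with 671 genes at an unadjusted p under 0.05 in the fit with trend), and leaving out 1 array 0 to 168 and 4 to 168. In NBRC 0224, eBayes without trend gave 36 and 68, raising signals to background 292 falls, and leaving out 1 array 44 to 324 and 31 to 423. The causes were not tested. Same-numbered arrays did not deviate together (correlation 0.038 in NFRI 3145 and 0.054 in NBRC 0224), so the numbers were not taken to pair samples. A replicate block gave 198 and 465 calls in NFRI 3145, 42 and 98 for the difference and 194 and 256 in NBRC 0224.

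With signals raised to background, the change of CIN5, DCI1, MAL11 and YFL064C became 0.036 and that of NEJ1 0.019, and the difference at FEX2 became −0.455. All 6 have signals at or under background at both acid levels of NFRI 3145 on at least 3 of 4 arrays, so raising them leaves only the backgrounds to compare. Of the changes of named genes, 5788 values under alternatives stayed on the same side of the threshold. These include changes called in neither fit, also where their sign switched. Another 524 kept the sign but lost the call, and 155 gained a call. In 5 the sign reversed with a call in the main or the alternative fit. With 2 arrays a group and falls that lie mostly near background, the size of many falls is known only as a bound.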

Other observations

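Other groups of genes held few calls in NFRI 3145, none of them kept in every fit with 1 array left out. Of 24 tested genes of the phosphate regulon 2 rose (8.33%) and 1 fell (4.17%), beside 3.82% and 9.67% of all tested genes. PHO84, the high-affinity phosphate transporter gene, read 2502 and 2057 at 0% and 3678 and 3641 at 0.6% AcOH (0.69 ± 0.17, limma adjusted p = 0.024). Of 32 tested genes of the cell cycle and DNA replication 1 rose (3.12%) and 2 fell (6.25%). PCL1, a G1 cyclin gene, read 45.0 and 53.9 at 0% AcOH and was below background on both arrays at 0.6%. CLB5, an S-phase cyclin gene, was below background at 0% and read 69.7 and 59.2 at 0.6% AcOH. Of 28 peroxisome and beta-oxidation genes 3 fell (10.7%, near the 9.67% of all tested genes). Of 16 tested mating genes 3 fell (18.8%), all 3 of these below background on both arrays at 0.6% AcOH. COS9, of a subtelomeric membrane protein family, read 2442 and 2625 against 1131 and 1382 (−1.02 ± 0.22).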
